A study of Drosophila melanogaster with 8 samples.

Results

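Long noncoding and antisense RNAs were followed between synaptosomes, isolated nerve endings to which pieces of the postsynaptic membrane stay attached, and the crude head homogenate (input) of adult Drosophila. The genes were chosen by their FlyBase symbol, which had to begin with lncRNA: or asRNA:, and 117 of the 10669 genes in the count table did so, 60 as lncRNA: and 57 as asRNA:. Each group had 4 libraries, numbered 1, 2 and 3 and, for the last count column of each group, named only old. Both groups came from heads of wild-type flies (w1118) that were 3 days old, with males and females in equal numbers per the study's methods. Synaptosome RNA came from the pooled synaptosome layers of a Percoll gradient, and input RNA came from the homogenate before the gradient. The flies carried no transgene and received no drug, so fractionation is what separates the groups. The flies were pooled, and neither fraction was sorted by cell type.

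Long noncoding RNAs are transcripts, often capped, spliced and polyadenylated like mRNAs, that carry no long reading frame. Many act in the nucleus on chromatin or splicing, and others serve as scaffolds that hold proteins together in granules. An antisense RNA is a noncoding transcript made from the strand opposite a protein-coding gene, so that it overlaps that gene in sequence. Of the 117 genes, only mimi carried a name of its own in place of a CR number. The RNA of mimi is known as a scaffold of cytoplasmic granules in neurons. In 3′-end sequencing every read starts at a poly(A) tail, so long and short transcripts give reads alike, and levels are CPM (a gene's counts scaled to the library total) without division by length.

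The study also measured mimi by RT-qPCR, in neurite and cell body fractions of neurons cultured from larval brains of control and pum mutant flies. There it served as an RNA known to localize to cell bodies. That material differs from the adult head fractions followed here. The primer pair is shown because mimi is the only member with a designed sequence. Both primers were designed on lncRNA:mimi, which lies at chr3R:23983503-23985065 (dm6, plus strand), and nothing is capitalised because no part of a primer is singled out.
mimi primer 1: atcatcccagattgcgtagc
mimi primer 2: gggctaatcgatccagtgaa

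By position in the annotation, 82 of the 117 genes overlapped a protein-coding gene on the opposite strand, 65 of them over an exon. All 57 asRNA: genes did so over an exon, against 8 of the 60 lncRNA: genes. A further 6 genes lay inside a protein-coding gene on the same strand, 1 overlapped one on the same strand without lying inside it, and 28 overlapped no protein-coding gene. Their median length was 929 bases (201 to 6628). They were spread over the chromosomes, with 13 on 2L, 24 on 2R, 31 on 3L, 26 on 3R, 4 on chromosome 4 and 19 on X. None had a known 3′ end within 50 bases of the end of another gene on the same strand, and 28 had a protein-coding gene ending within 2000 bases upstream on the same strand.

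Library totals ran from 1029666 to 9397652 counts in synaptosomes and from 7940909 to 16865581 counts in input. The shallowest were synaptosome libraries 2 and 3, with 1029666 and 1367641 counts. No label tells whether each library had its own collection of flies, so the spread behind the p-values may be technical. Among lists of cell type markers, neuron markers summed to 78.9 to 240 CPM in synaptosome libraries and 136 to 510 CPM in input libraries, and 0 of 8 were called in either direction by edgeR or DESeq2 or had an unadjusted p under 0.05. For photoreceptor markers 6 of 8 were called lower, with summed levels of 16996 to 86774 CPM in synaptosome libraries and 39311 to 52889 CPM in input libraries. Most of these sums was Arr2, which was not called (37806 CPM in synaptosomes, 31174 CPM in input), so they do not describe the called markers. Among those, ninaE averaged 524 CPM in synaptosomes and 9751 CPM in input. Of 3 tested cuticle markers, 2 were called higher, with sums of 174 to 491 CPM in synaptosome libraries and 42.8 to 90.4 CPM in input libraries. Glia (6 tested, 1 higher at an unadjusted p under 0.05) and fat body markers (5 tested, 0 at that p) gave no call by edgeR or DESeq2, 1 of 5 muscle markers was called lower, and no listed marker in the count table was at 0 in all libraries. The part of these cell types in the values below was not tested, and in such bulk samples fewer cells of a type and less RNA per cell cannot be told apart.

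Fewer noncoding genes were seen in synaptosomes than in input. In synaptosome libraries 1, 2, 3 and old, 28, 21, 20 and 30 of the 117 genes had at least 1 count (24.8 ± 4.99; means are given ± SD with n = 4 throughout). In input libraries 1, 2, 3 and old, 54, 67, 84 and 80 genes did (71.2 ± 13.6). The ranges did not touch, the highest synaptosome library lying below the lowest input library. Since the libraries differed in depth, each was also thinned to 1029666 counts, the smallest total. At that depth 27.4, 21, 20 and 26.6 genes were expected in synaptosome libraries 1, 2, 3 and old, against 50.1, 58.1, 64.7 and 56.3 in input libraries. The means were 23.8 ± 3.8 in synaptosomes and 57.3 ± 6.01 in input, or 20.3% and 49% of the 117 genes. For the 10422 protein-coding genes the thinned shares were 58% ± 7.99 in synaptosomes and 82.6% ± 2.14 in input, so coding genes too were seen less often. Thinning moved the synaptosome values little and lowered those of the deeper input libraries, which is visible as the distance between open and filled points in the plot of detection by library.

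**Figure D1:**
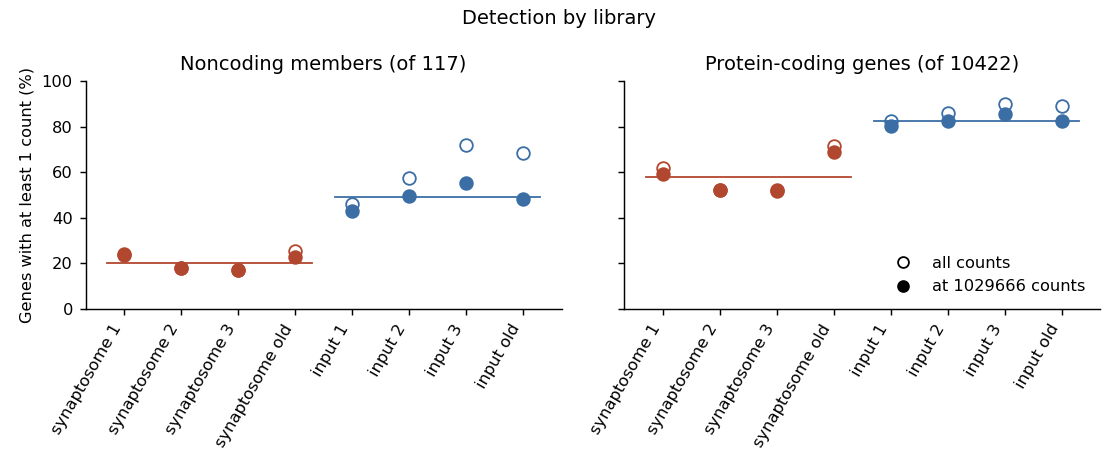
Percent of the 117 noncoding genes (left) and of 10422 protein-coding genes (right) with at least 1 count, per library, with all counts (open) or thinned to 1029666 counts (filled); lines are means of the 4 thinned values. Thinned noncoding detection averaged 20.3% in synaptosome libraries and 49% in input libraries, and coding detection 58% and 82.6%.

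Presence in synaptosomes also varied from library to library. Of the 117 genes, 48 had a count in at least 1 synaptosome library, 25 of these in a single library, 5 in 2 libraries, 8 in 3 and 10 in all 4. In input, 105 had a count in at least 1 library and 39 in all 4. Presence in every library of a group was thus found for 8.55% of the noncoding genes in synaptosomes and 33.3% in input, against 36.8% and 77.8% of coding genes. The 25 genes seen in a single synaptosome library were spread over the libraries, with 8 in library 1, 3 in library 2, 3 in library 3 and 11 in library old. Between the groups, 47 genes were seen in both, 58 in input alone, 11 in neither and 8 in all 8 libraries. The sole gene with counts in synaptosomes and none in input, lncRNA:CR44929, had 34 counts in synaptosome 1 and 0 in the other 7 libraries.

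Presence in a synaptosome library seldom rested on 1 or 2 counts. The authors kept only 3′ ends around peaks that reached a minimum read depth in a single sample, so low counts were in part removed beforehand. Of the 99 cases of a gene with a count in a synaptosome library, 3 rested on 1 or 2 counts and 88 (88.9%) on 10 or more. In input 9 of 285 cases rested on 1 or 2 counts and 231 (81.1%) on 10 or more. The median count of the detected genes was 40.5, 30, 30.5 and 41 in synaptosome libraries 1, 2, 3 and old, and 39, 26, 24 and 25.5 in the input libraries. Reads carry no molecular identifiers, so a count is a read and not a molecule, and the floors and limits below cover counting error only.

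Presence went with the level in input. Of the 44 noncoding genes at up to 1 CPM in input, 9 (20.5%) had a count in at least 1 synaptosome library, against 30.9% of coding genes at that level. At 1 to 2 CPM 7 of 21 noncoding genes (33.3%) and 50.1% of coding genes were seen, and at 2 to 5 CPM 14 of 21 (66.7%) and 70.1%. At 5 to 10 CPM the shares were 75% of 8 noncoding genes and 88.3% of coding genes, and above 10 CPM all 11 noncoding genes and 98.8% of coding genes were seen. By this measure the noncoding share was below the coding share in each range up to 10 CPM. Presence in all 4 synaptosome libraries did not follow that order, with 2.27% of noncoding and 0.182% of coding genes at up to 1 CPM, 0% and 1.08% at 1 to 2 CPM, 0% and 2.57% at 2 to 5 CPM, 50% and 8.9% at 5 to 10 CPM, and 45.5% and 60.1% above 10 CPM. The lowest ranges, with 44 and 21 genes, held most of the 105 noncoding genes seen in input. The differences within a range were not tested.

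**Figure D2:**
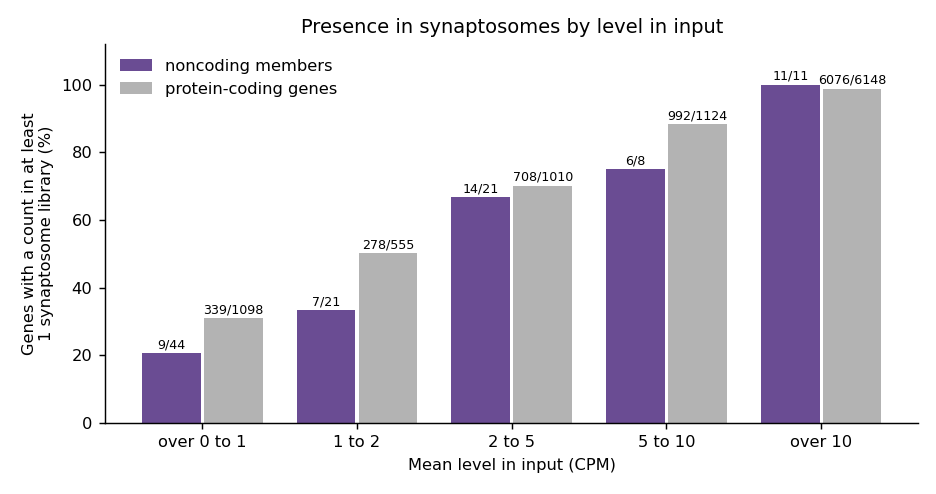
Percent of genes with a count in at least 1 synaptosome library, by their mean level in input (CPM), for noncoding genes (purple) and protein-coding genes (grey), with the number seen over the number in each range. Of the noncoding genes, 9 of 44 were seen at up to 1 CPM in input and all 11 above 10 CPM.

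The noncoding genes took a small and similar share of all counts in both groups. Synaptosome libraries 1, 2, 3 and old gave them 0.0526%, 0.0808%, 0.0945% and 0.0397% of counts (0.0669% ± 0.0252). Input libraries 1, 2, 3 and old gave them 0.0641%, 0.054%, 0.0643% and 0.0428% (0.0563% ± 0.0102). The ranges overlapped, synaptosome 2 and 3 lying above all input libraries and synaptosome old below all of them. The log2 ratio of the mean shares was 0.25, and it was −0.29 without the shallow synaptosome libraries 2 and 3. In synaptosomes 8350 of 16546406 counts fell on these genes and in input 24832 of 45761121. The lncRNA: genes gave 3696 synaptosome counts and 10045 input counts, the asRNA: genes 4654 and 14787.

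A few genes carried most of these counts, and in synaptosomes they differed between libraries. The leading gene took 12.6% of the noncoding counts in synaptosome 1 (asRNA:CR45822), 19.7% in synaptosome 2 (asRNA:CR44030), 41.8% in synaptosome 3 (asRNA:CR44107) and 26.5% in synaptosome old (lncRNA:CR44298). In all 4 input libraries asRNA:CR44107 led, with 18.5%, 28.3%, 17.3% and 22.6% in libraries 1, 2, 3 and old. The median level of a noncoding gene was 0 CPM in synaptosomes and 1.11 CPM in input, against 10.8 and 15.6 CPM for coding genes. Above 10 CPM there were 14 noncoding genes in synaptosomes and 11 in input, and above the coding median 14 and 8.

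To ask which noncoding RNAs differed in level between synaptosomes and input, all genes were tested with edgeR's quasi-likelihood test with Benjamini-Hochberg adjustment, and adjusted p-values under 0.05 counted as calls. Of the 117 genes, 36 passed the filter on low counts (30.8%), 18 lncRNA: and 18 asRNA:, against 8028 of 10422 coding genes (77%). No noncoding gene was called higher in synaptosomes, where the background was 0.944% of 8159 tested genes. By edgeR, lncRNA:CR43242 and asRNA:CR46104 were called lower, 5.56% of the 36, where the background was 4.13%. At an unadjusted p under 0.05 there were 2 higher and 3 lower (backgrounds 4.44% and 9.85%). DESeq2 called 2 higher and 3 lower noncoding genes, with backgrounds of 3.16% and 7.18%. The edgeR shares lay near their backgrounds, so the counts of calls set the noncoding genes apart in neither direction.

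The tested genes spread widely, and most of that spread was within the error. Log2 fold changes, synaptosome minus input, ran from −8.53 to 5.06 with 20 above 0 and 16 below. Their median was 0.15, against −0.35 over all tested genes. This order turned without synaptosome 1 (−0.66, all genes −0.44) and without synaptosome 3 (−0.60, all genes −0.35), each over 49 noncoding genes. It also turned without synaptosome 2 and 3 (−1.49 over 66, all genes −0.31). Without synaptosome 2 the median was −0.32 over 50 (all genes −0.30). Without synaptosome old it was −0.06 over 44 (all genes −0.57), and the order held. The filter let other genes through in these fits, so the turn cannot be assigned to the library left out. The median approximate standard error (SE) was 1.54, ranging from 0.56 to 2.26, against 1.10 over all tested genes. A gene passed the filter only if it had counts in enough libraries, so these 36 are no stand-in for all 117. With DESeq2, which gave a value for 57 of the 117, the median was −1.80 (all genes −0.35). That larger set includes genes with no synaptosome count, such as asRNA:CR43944 (−6.29), whose fitted value is no bound. Apart from the 2 genes called lower, the lowest adjusted p among the 36 was 0.23.

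**Figure D3:**
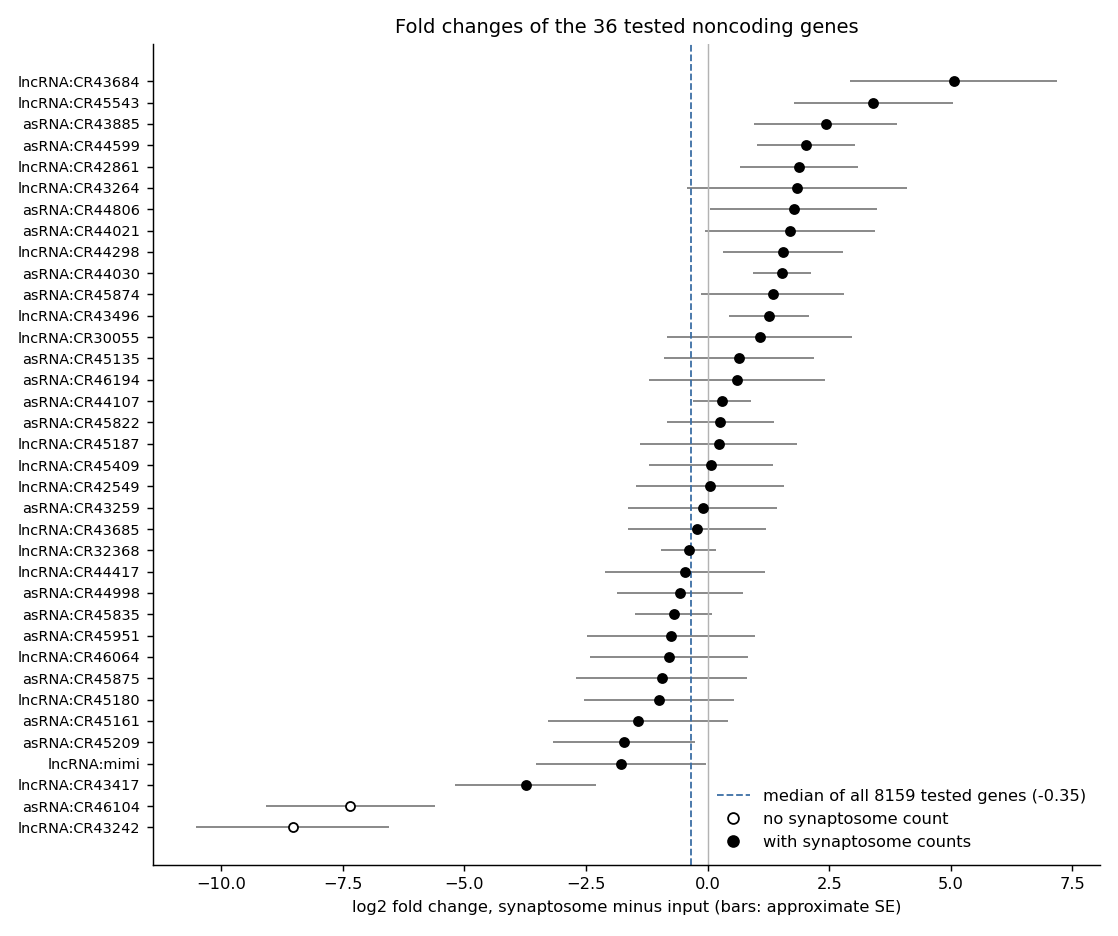
The log2 fold change (synaptosome minus input) of the 36 tested noncoding genes with bars of 1 approximate SE, open where no synaptosome library had a count and the fitted value is no bound. The dashed line is the median of all 8159 tested genes (−0.35), and the 2 genes called lower sit at the bottom with open symbols.

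The gene lncRNA:CR43242 (FBgn0262887, chr2L:23069005-23070724, plus strand) overlapped no protein-coding gene and lay 619 bases from Spf45, which encodes a splicing factor. It had 0 counts in all 4 synaptosome libraries, against 34, 94, 53 and 88 counts in input libraries 1, 2, 3 and old. In CPM these input values were 3.81, 10.1, 3.97 and 6.35 (6.07 ± 2.95). Every input library was thus above every synaptosome library (edgeR adjusted p = 0.049). With a floor of 3 counts per library, the mean level was at least 4.19-fold lower in synaptosomes, the spread of input left aside. The call stood close to the threshold and was lost when any library but synaptosome old was left out, settings in which at most 0.232% of all tested genes were called lower. Over 18 settings the adjusted p ran from 7.55e-04, by DESeq2, to 0.311.

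The gene asRNA:CR46104 (FBgn0267773, chr3R:28336889-28337629, plus strand) is antisense to an exon of Gfat2, which encodes an enzyme that makes the amino sugars used in glycosylation. It too had 0 counts in the 4 synaptosome libraries, against 40, 26, 22 and 23 counts in input libraries 1, 2, 3 and old (4.48, 2.8, 1.65 and 1.66 CPM; 2.65 ± 1.34). By the same floor its mean level was at least 1.83-fold lower in synaptosomes (edgeR adjusted p = 0.049), with an adjusted p of 0.0409 to 0.334 over 18 settings. The call was lost when any library but synaptosome old was left out. Gfat2 itself averaged 53.9 ± 29 CPM in synaptosomes and 50.6 ± 18.3 CPM in input, with a log2 fold change of 0.10 ± 0.61 (SE; adjusted p = 0.979). Both called genes passed the filter through input alone, so a called difference could run only one way.

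The libraries were also compared without a model. Of 49 noncoding genes with counts in at least 4 libraries, 0 had all synaptosome libraries above all input libraries (background 2.79%) and 10 had all of them below (20.4%; background 16.3%). Of those 10 genes, 9 had no synaptosome count, so they had their 4 libraries through input alone and could only come out lower. Among the 36 tested genes, 3 lay below without overlap (8.33%; background 14.5%) and 0 above (background 2.99%). Apart from the 2 called genes, asRNA:CR43944, antisense to fbl, a pantothenate kinase gene, had the most input counts among them, with 91, 7, 104 and 52 counts in input libraries 1, 2, 3 and old. It did not pass the filter of the edgeR test. Its mean level was at least 3.89-fold lower in synaptosomes by the floor. DESeq2 gave an adjusted p of 0.00631, the lowest over the 8 settings that tested it (the highest was 0.118). For lncRNA:CR45125, asRNA:CR44291, asRNA:CR42254, asRNA:CR45907 and asRNA:CR44989 the bounds were at least 1.95-, 1.77-, 1.74-, 1.6- and 1.17-fold lower, and asRNA:CR42860 gave no bound. Input levels of these genes averaged 1.11 to 2.82 CPM, against a synaptosome floor that averaged 1.45 CPM, so this floor could not give larger bounds. The floor is averaged over libraries, and the shallow synaptosome libraries raise it. The bounds hold for the mean input level without its spread. Single input libraries lay below that averaged floor, such as input 2 for asRNA:CR44989 (0.216 CPM) and for asRNA:CR43944 (0.755 CPM). Counts summed over libraries were not used for these bounds.

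The tenth, lncRNA:CR43417 (FBgn0263336, chr2R:16817519-16819240, minus strand), is antisense to CG5550. Synaptosome libraries 1, 2 and 3 had none of its counts and synaptosome old had 7, or 0.819 CPM, against 1.57, 2.8, 4.49 and 6.85 CPM in input libraries 1, 2, 3 and old. The means were 0.205 ± 0.409 CPM in synaptosomes and 3.93 ± 2.29 CPM in input, with a log2 fold change of −3.74 ± 1.45 (SE; edgeR adjusted p = 0.23). It thus missed the threshold, although no synaptosome library reached the lowest input library. Without synaptosome old, when no synaptosome library held a count, its adjusted p was 0.0396, and over 18 settings it ran from 0.0396 to 0.492.

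The most abundant noncoding RNA in both groups was asRNA:CR44107 (FBgn0264916, chr3R:19149122-19149557, plus strand), antisense to an exon of CG5835. It had 66.8, 73.5, 380 and 63.5 CPM in synaptosome libraries 1, 2, 3 and old (146 ± 156), against 106, 153, 97 and 118 CPM in input libraries (119 ± 24.7). Synaptosome 3 was the highest of all 8 libraries and the other 3 synaptosome libraries lay below every input library. The log2 fold change was 0.30 ± 0.60 (SE; adjusted p = 0.915) and took the other sign, −0.81, without synaptosome 3. CG5835 had a log2 fold change of −0.21 ± 0.64.

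The next in synaptosomes was asRNA:CR44030 (FBgn0264822, chr4:959675-962692, plus strand), antisense to an exon of fuss, which encodes a transcriptional corepressor of the Ski family. It had 30.7, 143, 95.8 and 47.8 CPM in synaptosome libraries 1, 2, 3 and old (79.4 ± 50.8), against 29.5, 16.4, 36.3 and 27.6 CPM in input libraries (27.5 ± 8.27). Synaptosome 2, 3 and old were above all input libraries and synaptosome 1 was within them. Its log2 fold change of 1.53 ± 0.60 (SE) did not pass the test (adjusted p = 0.239), and over 19 settings the fold change was between 0.58 and 1.79.

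Further abundant genes also overlapped between the groups. Levels of lncRNA:CR32368 (FBgn0052368, chr3L:7915437-7915846, plus strand), which overlaps no coding gene, were 29.8, 58.6, 89.4 and 22.9 CPM in synaptosome libraries 1, 2, 3 and old and 85.3, 52.2, 79.8 and 45.1 CPM in input libraries. The groups overlapped, with means of 50.2 ± 30.4 CPM for synaptosomes and 65.6 ± 19.9 CPM for input and a log2 fold change of −0.39 ± 0.56 (SE; adjusted p = 0.869) that was −1.25 without synaptosome 2 and 3. For lncRNA:CR43496 (FBgn0263507, chrX:6758610-6759491, minus strand), antisense to an intron of the heterochromatin gene sov, synaptosome libraries had 51, 21.9, 40.1 and 29 CPM and input libraries 27.2, 4.42, 13.8 and 13.5 CPM. Only synaptosome 2 lay below the highest input library, and the log2 fold change was 1.27 ± 0.82 (SE; adjusted p = 0.584).

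The levels of lncRNA:CR44298 (FBgn0265344, chr2R:10053095-10053393, minus strand) were 0, 26.2, 33.1 and 115 CPM in synaptosome libraries 1, 2, 3 and old (43.7 ± 49.9) and 20, 8.41, 10.6 and 20.9 CPM in input libraries (15 ± 6.36). Synaptosome 1 was the lowest of the 8 libraries and the other 3 synaptosome libraries were above all input libraries. Its log2 fold change was 1.55 ± 1.24 (SE; adjusted p = 0.689) and was 0.38 without synaptosome old. The gene lies antisense to an intron of magu, a secreted modulator of BMP signalling, which averaged 71.4 ± 26.1 CPM in synaptosomes and 30.3 ± 4.94 CPM in input (log2 fold change 1.24 ± 0.51, adjusted p = 0.276).

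**Figure D4:**
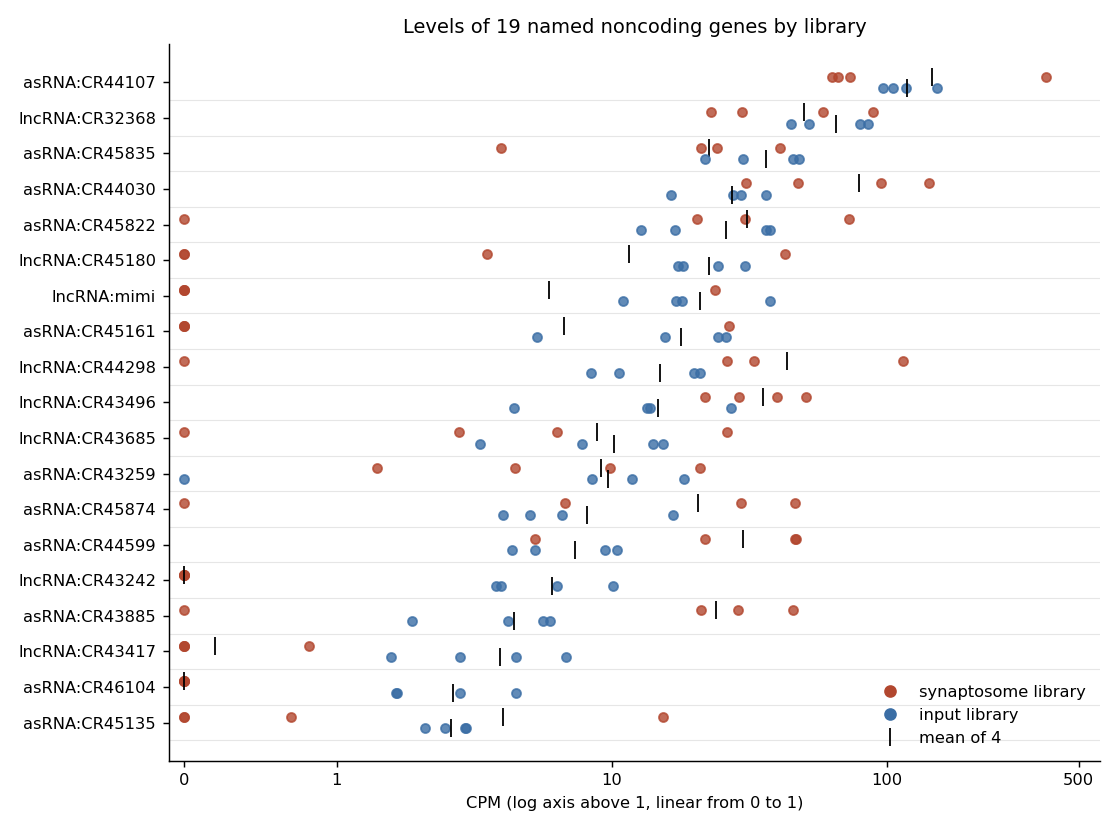
Levels in CPM (log axis above 1, linear below) of the 19 noncoding genes described by rule, each dot a library and each bar a mean of 4, with synaptosome libraries drawn above input libraries. Synaptosome 3 stands apart for asRNA:CR44107 (380 CPM), and lncRNA:CR43242 and asRNA:CR46104 sit at 0 in all synaptosome libraries.

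A set of asRNA: genes had at least 2 synaptosome libraries above all input libraries without passing the edgeR test. For asRNA:CR44599 (FBgn0265810, chr2L:13384822-13385403, minus strand), antisense to an exon of loqs, the partner protein of Dicer-1 in microRNA processing, synaptosome libraries 1, 2, 3 and old had 46.8, 21.9, 46.5 and 5.26 CPM. Input libraries had 5.27, 10.5, 4.34 and 9.45 CPM. All synaptosome libraries except old lay above all input libraries, mean levels were 30.1 ± 20.3 CPM for synaptosomes and 7.38 ± 3.02 CPM for input, and the log2 fold change was 2.02 ± 1.0 (SE; edgeR adjusted p = 0.404). DESeq2 called it higher, with an adjusted p of 0.0444 (0.0444 to 0.758 over 18 settings). For loqs itself the log2 fold change was −0.36 ± 0.69 (adjusted p = 0.912).

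The gene asRNA:CR43885 (FBgn0264477, chr3L:19543100-19543622, plus strand), antisense to Dred, had 45.6, 28.9, 21.1 and 0 CPM in synaptosome libraries 1, 2, 3 and old (23.9 ± 18.9), against 5.61, 4.21, 5.99 and 1.88 CPM in input libraries (4.42 ± 1.86). Again synaptosome old alone failed to exceed the input libraries. Its log2 fold change was 2.43 ± 1.47 (SE; adjusted p = 0.542), while that of Dred was −0.88 ± 0.44 (adjusted p = 0.41). For asRNA:CR45874 (FBgn0267534, chr3L:9510017-9510889, plus strand), antisense to the ribosomal protein gene RpS9, synaptosome libraries had 6.75, 46.3, 29.6 and 0 CPM and input libraries 6.62, 5.07, 4.04 and 16.7 CPM. These overlapped, with a log2 fold change of 1.34 ± 1.47 (SE; adjusted p = 0.81) that was 0.61 without synaptosome 2 and −1.22 without synaptosome libraries 2 and 3. RpS9 was far more abundant, at 4011 ± 2735 CPM in synaptosomes and 6563 ± 3750 CPM in input.

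The gene asRNA:CR45822 (FBgn0267472, chr3L:7355717-7356598, plus strand), antisense to the insulator protein gene CTCF, had 73.3, 30.6, 0 and 20.5 CPM in synaptosome libraries 1, 2, 3 and old (31.1 ± 30.9) and 12.8, 17, 37.8 and 36.5 CPM in input libraries (26 ± 13). Synaptosome libraries were both the highest and the lowest of the 8. The log2 fold change was 0.26 ± 1.10 (SE; adjusted p = 0.964), took the other sign without synaptosome 1 (−0.62), and that of CTCF was −1.09 ± 1.35.

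The largest positive fold change belonged to lncRNA:CR43684 (FBgn0263767, chr3L:15062207-15062622, minus strand), which lies inside Sytbeta, a synaptotagmin gene, on the same strand and is described here after its values were seen. It had 22.3, 33.2, 24.6 and 0 CPM in synaptosome libraries 1, 2, 3 and old (20.1 ± 14.2), against 0, 2.05, 0.3 and 0 CPM in input libraries (0.587 ± 0.985). Libraries 1, 2 and 3 of synaptosomes exceeded every input library by a wide margin and synaptosome old had no count. The log2 fold change was 5.06 ± 2.13 (SE; edgeR adjusted p = 0.285), DESeq2 called it higher at 0.0494, and the adjusted p ran from 0.0494 to 0.578 over 18 settings. Sytbeta averaged 1.55 ± 3.1 CPM in synaptosomes and 4.56 ± 3.16 CPM in input (log2 fold change −1.43 ± 1.66).

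Another gene chosen after its values were seen, lncRNA:CR45543, had 6.52, 0.874, 7.75 and 6.67 CPM in synaptosome libraries 1, 2, 3 and old and 0, 1.19, 0.824 and 0 CPM in input libraries. Synaptosome 2 alone kept its groups from separating, and the log2 fold change was 3.41 ± 1.63 (SE; adjusted p = 0.379). When both libraries named old were left out, lncRNA:CR43684, asRNA:CR43885, asRNA:CR44599 and asRNA:CR45874 had all synaptosome libraries above all input libraries, 4 of 30 noncoding genes with counts in at least 4 libraries, against a background of 7.48% of genes. None of these 4 was then called by edgeR, with adjusted p-values of 0.155, 0.177, 0.164 and 0.332. Synaptosome old was their lowest synaptosome library, at 0, 0, 5.26 and 0 CPM, so leaving it out could only favour them. For asRNA:CR45874 input old (16.7 CPM) was left out as well, and synaptosome 1 then lay at 6.75 CPM against 6.62 CPM in input 1.

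The mimi RNA (FBgn0051451) is a named neuronal transcript that overlaps no coding gene. It had 23.7, 0, 0 and 0 CPM in synaptosome libraries 1, 2, 3 and old (5.93 ± 11.9), against 17.2, 18.1, 37.8 and 11 CPM in input libraries (21 ± 11.6). It was thus present in every input library and in synaptosome 1 alone, where its level lay within the input range. The log2 fold change was −1.78 ± 1.74 (SE; edgeR adjusted p = 0.773). Without synaptosome 1 no synaptosome library held a count (adjusted p = 0.0643, 0.0643 to 0.994 over 19 settings), and the log2 fold change was −0.76 without synaptosome 2 and 3.

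A like pattern, steady in input and present in few synaptosome libraries, was found for a pair of further genes. The lncRNA:CR45180 gene (FBgn0266690, chr3L:25708177-25709251, plus strand), 37197 bases from the nearest coding gene, lovit, had 0, 42.8, 0 and 3.51 CPM in synaptosome libraries 1, 2, 3 and old and 24.4, 18.2, 30.6 and 17.5 CPM in input libraries. Its means were 11.6 ± 20.9 CPM in synaptosomes and 22.7 ± 6.13 CPM in input (log2 fold change −1.0 ± 1.55, adjusted p = 0.886), and the log2 fold change was −4.06 without synaptosome 2. The asRNA:CR45161 gene (FBgn0266654, chr3L:19989706-19990739, plus strand), antisense to the flight muscle gene fln, had 0, 0, 26.8 and 0 CPM in synaptosome libraries and 24.4, 26, 15.6 and 5.34 CPM in input libraries. The synaptosome library with the highest level differed between these genes, being library 2 for lncRNA:CR45180 and library 3 for asRNA:CR45161. For asRNA:CR45161 the log2 fold change was −1.44 ± 1.85 (SE; adjusted p = 0.846). Without synaptosome 3 no synaptosome library held a count of it (adjusted p = 0.0782, 0.0679 to 0.992 over 18 settings). The overlapping gene fln had 0, 86.6, 0 and 24 CPM in synaptosome libraries and 1.68, 10.9, 1.8 and 114 CPM in input libraries.

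Other noncoding genes, described after their values were seen, came up in a single synaptosome library. With 0 counts in synaptosome libraries 1, 2 and 3, asRNA:CR45873 had 238 counts in synaptosome old (27.8 CPM), against 0, 16, 31 and 2 counts in input libraries 1, 2, 3 and old. In the same way lncRNA:CR30009 had 125 counts in synaptosome old alone (14.6 CPM), against 24, 0, 10 and 16 counts in input libraries. The tested gene lncRNA:CR43264 had 53.3 CPM in synaptosome 2 and 0 in the other synaptosome libraries, against 0, 1.19, 8.39 and 4.98 CPM in input libraries (log2 fold change 1.84 ± 2.26, adjusted p = 0.833). Each of these had a level in its 1 synaptosome library above every input library and no count in the other synaptosome libraries.

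The reverse, many input counts and 1 synaptosome count, was found for 2 genes that did not pass the filter. Synaptosome 2 held the only synaptosome count of asRNA:CR46093, which had 0, 78, 60 and 12 counts in input libraries 1, 2, 3 and old. Scaled for library totals and summed over each group, the ratio of input over synaptosomes was 50.9 (95% counting interval 9 to 2024). For asRNA:CR45000, antisense to Lcch3, a GABA-gated chloride channel subunit gene, synaptosome 2 also held 1 count, against 0, 55, 13 and 3 counts in input libraries, a ratio of 24.1 (4.19 to 965). Both intervals are wide, and input libraries themselves ranged from 0 counts upward. They rest on counts summed over libraries, so they cannot be set beside the bounds from a floor per library given above.

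Since 3′-end sequencing separates transcripts that end at different sites, the ends of each gene were also compared. Only 11 of the 117 noncoding genes had 2 or more ends in the table (9.4%), against 47.9% of coding genes. Of 129 ends, 40 were tested. By edgeR 0 were called higher (background 0.732% of 11062 ends; 2 at an unadjusted p under 0.05 and 0 called by DESeq2) and 3 lower (7.5%; background 6.46%), the single ends of lncRNA:CR43242 and asRNA:CR46104 and end 2 of asRNA:CR45835. The ends carry numbers but no coordinates in the count table, so their order along a gene was not used here.

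The gene asRNA:CR45835 (FBgn0267485, chr3L:7361639-7363598, minus strand) is antisense to Sec63, which encodes a component of protein import into the endoplasmic reticulum. As a whole it had 3.96, 41.1, 21.1 and 24.2 CPM in synaptosome libraries 1, 2, 3 and old (22.6 ± 15.2) and 48.1, 30, 21.9 and 45.7 CPM in input libraries (36.4 ± 12.6). The log2 fold change of −0.70 ± 0.79 (SE; adjusted p = 0.818) did not pass the test and the groups overlapped. Its end 0 had 17, 47, 30 and 207 counts in synaptosome libraries and 345, 252, 247 and 541 counts in input libraries. Its end 2 had 0 counts in all 4 synaptosome libraries and 42, 26, 38 and 84 counts in input libraries, which was 9.79%, 9.35%, 13% and 13.2% of the gene in input libraries 1, 2, 3 and old. The end was thus seen in every input library and in no synaptosome library (edgeR adjusted p = 0.039), and since it passed the filter through input alone, its test could run only one way. If each read is taken as an independent draw, its 0 of 301 synaptosome counts allows a share of up to 0.997%, against 11.6% of the gene's counts in input. Reads that come in clumps, as copies of few molecules, would make this limit too tight. Synaptosome old held 207 of the 301 counts, and the 94 without it allow up to 3.19%. Shares of ends within a gene were not tested, and the call of end 2, like those of the other ends, was lost without any one library other than synaptosome old.

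**Figure D5:**
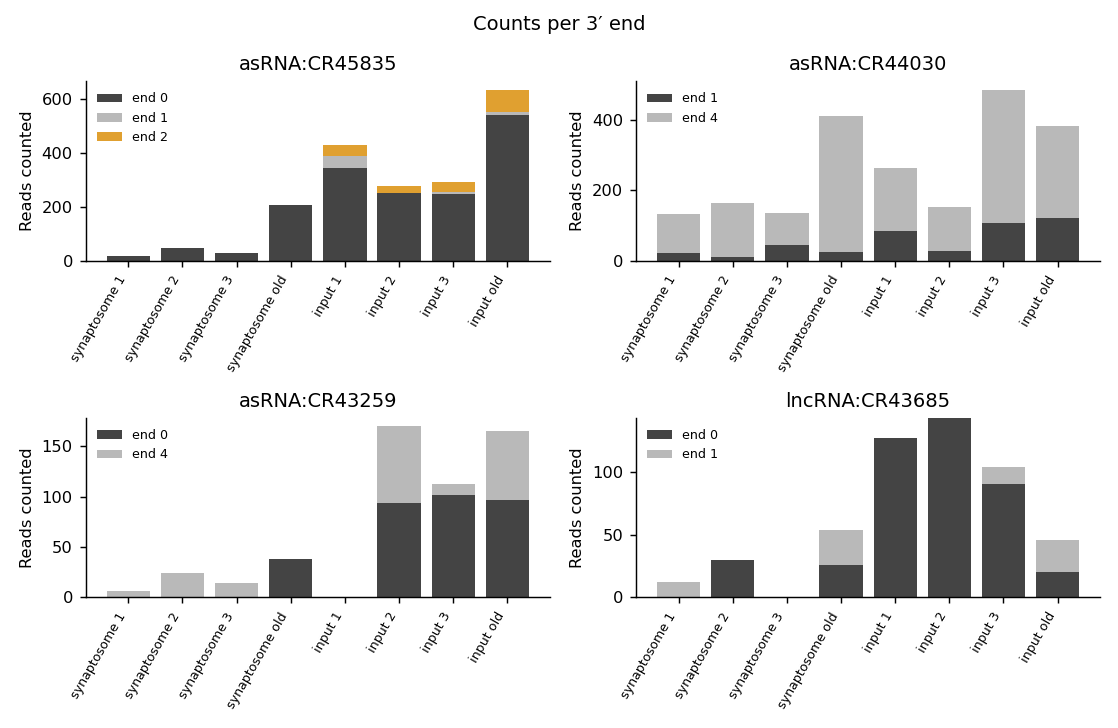
Reads counted per library at each 3′ end of asRNA:CR45835, asRNA:CR44030, asRNA:CR43259 and lncRNA:CR43685, synaptosome libraries left of input libraries, with ends stacked. End 2 of asRNA:CR45835 has 42, 26, 38 and 84 counts in input libraries and 0 in synaptosome libraries.

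For asRNA:CR44030, end 4 took 84.1%, 93.9%, 67.6% and 93.6% of the gene's counts in synaptosome libraries 1, 2, 3 and old and 68.4%, 80.9%, 77.7% and 68.1% in input libraries. Its share was above every input library in synaptosome 1, 2 and old and below them in synaptosome 3. End 4 had a log2 fold change of 1.58 ± 0.66 (SE; adjusted p = 0.273) and end 1 one of 0.52 ± 1.19 (adjusted p = 0.931). In asRNA:CR43259 (FBgn0262904, chr3R:25902846-25906766, minus strand) end 0 had 0, 0, 0 and 38 counts in synaptosome libraries, where end 4 had 6, 24, 14 and 0, so each synaptosome library held one end or the other. In input libraries end 0 had 0, 94, 102 and 97 counts and end 4 had 0, 76, 11 and 68. The gene as a whole had a log2 fold change of −0.10 ± 1.53 (SE; adjusted p = 0.992), a sign that turned with the scaling, to 0.04 with median-of-ratios factors, and a value that was −0.87 without synaptosome 2.

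For lncRNA:CR43685 (FBgn0263768, chr3R:7092347-7093707, minus strand), end 0 took 58.3% of synaptosome counts and 90.5% of input counts. By library, end 0 had 0, 30, 0 and 26 counts in synaptosomes and 127, 143, 90 and 20 in input, and end 1 had 12, 0, 0 and 28 in synaptosomes and 0, 0, 14 and 26 in input. Libraries named old held both ends in both groups, and the shares rest on few reads in synaptosomes. In asRNA:CR45135 (FBgn0266628, chr2R:10541595-10541995, plus strand), antisense to the transcription factor gene lola, end 0 had no count in synaptosomes and took 0%, 0%, 46.4% and 22% of the counts in input libraries 1, 2, 3 and old. It was thus missing from input libraries 1 and 2 as well, and synaptosome 1 held 66 of the gene's 72 synaptosome counts, so no difference in this end could be seen. Levels of the gene were 15.4, 0, 0 and 0.702 CPM in synaptosome libraries 1, 2, 3 and old and 2.92, 2.48, 2.1 and 2.96 CPM in input libraries.

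Detection was also counted by position and by symbol, without a test. Of the 82 genes antisense to a coding gene, 37.8% had a count in at least 1 synaptosome library and 95.1% in input. Of the 28 genes without overlap the shares were 50% and 82.1%. By symbol, 40% of lncRNA: genes and 42.1% of asRNA: genes had a synaptosome count, and 85% and 94.7% an input count. Median log2 fold changes of the tested genes were 0.45 for genes antisense to a coding gene and −0.39 for genes without overlap, both given without a test.

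The coding genes opposite the tested noncoding genes were compared as well. In 20 pairs both genes were tested, and in 8 of these the fold changes had the same sign. No coding gene of a pair was called by edgeR, with 1 higher and 1 lower at an unadjusted p under 0.05 and the same counts called by DESeq2. The noncoding genes of the pairs had a median log2 fold change of 0.45 and the coding genes one of −0.28, against −0.35 over all tested genes. The coding gene was more abundant than its antisense partner in 17 of 20 pairs in synaptosomes and 18 in input. Whether the counting used strand is not given in the sources used here, so reads of a noncoding gene and its overlapping partner cannot be told apart with certainty.

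Proteins that work with well-known fly noncoding RNAs were also read from the table. Of the 5 tested genes of the MSL complex, which binds the roX RNAs in dosage compensation, 0 were called by edgeR or DESeq2 and 0 had an unadjusted p under 0.05 (median log2 fold change 0.77). The helicase gene mle of this complex averaged 88.2 CPM in synaptosomes and 162 CPM in input (log2 fold change −0.88, adjusted p = 0.461). The other genes of the complex went both ways, with log2 fold changes of 0.77 for msl-1, 1.29 for msl-3, 0.77 for mof and −2.63 for msl-2. Of 6 genes for partners of the hsr-omega RNA in nuclear omega speckles, 5 were tested and 0 were called by edgeR or DESeq2, with 1 lower at an unadjusted p under 0.05 (median log2 fold change −1.26). All 5 had a log2 fold change below 0, the hnRNP gene Hrb98DE having 102 CPM in synaptosomes and 263 CPM in input (log2 fold change −1.36, adjusted p = 0.103). None of the 117 genes carried a roX or hsr-omega name, so those RNAs themselves were not analysed here.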

How the data were processed

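Polyadenylated RNA of 4 synaptosome and 4 input libraries was sequenced from its 3′ ends with a kit that reads from the poly(A) tail. According to their methods and processing notes, the authors trimmed reads, aligned them to dm6 (STAR 2.6.1b), removed signs of internal priming, clustered 3′ ends and kept those known from long reads or annotation. Clusters were built around peaks that reached a minimum read depth in a single sample, and all samples were then counted again. The deposited counts were whole, not normalized numbers per gene (10669 genes) and per 3′ end (20177 ends), each gene being the sum of its ends. A deposited list of 52971 known 3′ ends held positions. The authors' own comparison (mean, log2 fold change, error and p-values, made with DESeq) was not used. Filtering on known ends means that noncoding RNAs ending elsewhere could not be seen. The labels describe snap-frozen flies and the methods fresh heads, and the sources used here do not settle which holds for these libraries.

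Groups came from the sample titles. A count column of each group was named only old, and it was used as a library without a number. Symbols and positions came from an annotation of the same assembly, and 82 identifiers had no symbol. In R 4.3.3, edgeR 4.0.16 tested the counts of all genes and of all ends (filterByExpr, TMM, robust quasi-likelihood, no covariate; 8159 genes and 11062 ends tested), with Benjamini-Hochberg adjusted p under 0.05 as a call. DESeq2 1.42.0, other scalings and filters, blocks and left-out libraries were alternatives. The code was tested on simulated data. CPM relates counts to the TMM-scaled total, and errors of fold changes are the absolute log2 fold change over the square root of F. A fitted fold change with no synaptosome count depends on edgeR's prior count, so a bound from a floor of 3 counts per library is given. It divides the mean input level by the mean floor and leaves out the spread of the input libraries.

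Members and lists were chosen with earlier results of these data known. Described in full were members called, the 10 most abundant in each group, own-name members with counts in at least 4 libraries, up to 5 tested members per direction without overlap, and members with 2 or more ends of at least 10% in a group and at least 50 counts in each group. Sequence near the 3′ ends was not analysed here, and no p was computed for sums over members.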

Additional observations from a re-analysis of the deposited data

Results flagged for a closer look

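In 6 of 44 groups of 4 libraries examined for the 19 described noncoding genes and the summaries over libraries, 1 library lay far from the other 3 by Dixon's criterion. All 6 were synaptosome libraries, and in each the library was high. Chance gives about 1 in 20 such groups of values that scatter evenly, a rate that cannot be applied to the genes whose other 3 libraries were at 0 (mimi, asRNA:CR45161 and lncRNA:CR43417), where a single library with counts meets the criterion by construction. For asRNA:CR44107 synaptosome 3 had 380 CPM and the next library 73.5 CPM. For lncRNA:CR45180 synaptosome 2 had 42.8 CPM, with 3.51 CPM in the next. Synaptosome 1 stood apart for mimi, with 23.7 CPM and 0 in the other libraries of the group, and for asRNA:CR45135, with 15.4 CPM and 0.702 CPM in the next. Synaptosome 3 alone had counts of asRNA:CR45161, at 26.8 CPM, and synaptosome old alone had counts of lncRNA:CR43417, at 0.819 CPM. What set these libraries apart was not tested.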

How the results depend on the processing

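The floor of 3 counts averaged 1.45 CPM in synaptosomes and 0.275 CPM in input. It was highest in synaptosome 2 and 3 (2.62 and 2.11 CPM), while synaptosome old and input 1 had 0.351 and 0.336 CPM. Synaptosome old, with more counts than input 1 (9397652 and 7940909), held 30 members against 54. The direction of detection held under all alternatives: synaptosomes had 33.6 fewer members per library at equal depth, a difference of −45 when at least 3 counts were asked for and −46.5 with unthinned counts. No member was called higher by any edgeR setting, and DESeq2 called 2. The 2 members called lower became 0 without a filter (all genes 0.487%) and with a batch term for the libraries named old (all genes 0.613%). They also became 0 without the shallow synaptosome libraries 2 and 3, an alternative chosen after seeing the data (all genes 0.0109%). Asking for a mean count of 100 removed both genes before the test, so neither could be called there. Without both libraries named old, 5 of 33 were called lower (15.2%, all genes 6.14%). Leaving out 1 library at a time gave 0 to 5, with 5 of 44 (11.4%; all genes 11.6%) without synaptosome old and at most 0.232% of all genes called otherwise. Every member called lower without synaptosome old, or without both libraries named old, had no count in synaptosome 1, 2 and 3. Each passed the filter through input alone and could only come out lower, so these shares show no excess of lower members. The 3 ends called lower became 0 without a filter (all ends 0.591%) and without synaptosome 2 and 3 (all ends 0%). At that mean count all 3 were removed before the test. Ends called lower were 7 with DESeq2 (10.8%, all ends 9.03%) and 6 without both libraries named old (17.1%, all ends 14.5%). With 1 library left out they were 0 to 7, with 7 without synaptosome old (15.2%; all ends 16.4%).

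Members without overlap and higher were 4 of 30 without both libraries named old (all genes 7.48%), 3 of 45 without synaptosome 2 and 3 (all genes 8.73%), and 0 to 3 with 1 library left out (3 of 46 without synaptosome old, all genes 5.23%). Those lower were 0 of 30 without both libraries named old (all genes 21.3%) and 16 of 45 without synaptosome 2 and 3 (35.6%; all genes 27.2%), with 1 to 17 when 1 library was left out (17 of 47 without synaptosome 1, 36.2%, all genes 22.5%). Asking for 4 libraries with counts is stricter when input libraries are left out. 

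With the replicate number as a block, 0 members and 0 ends were called lower, whether the libraries named old formed a block or were left out. Few features of any kind were called lower there. With old as a block they were 0.809% of all genes and 2.69% of all ends. With libraries 1 to 3 alone they were 1.54% and 2.29%. Per the study's methods, input was sampled from the homogenate that was then fractionated, so libraries may be paired by preparation. Correlations of the deviations of same-numbered libraries were 0.00245, 0.0391 and −0.0197 for numbers 1, 2 and 3 and 0.248 for old. The highest between libraries of different numbers was 0.104. The main test did not pair the libraries, and what the libraries named old share was not tested. With old as a block, log2 fold changes took the other sign for asRNA:CR44107 (−0.24), asRNA:CR45822 (−0.32), asRNA:CR43259 (0.60) and asRNA:CR45135 (−2.25). With the block of libraries 1 to 3 they did so for asRNA:CR43259 (1.43) and asRNA:CR45135 (−2.53).

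Signs also turned for asRNA:CR44107 (−0.81) and asRNA:CR45874 (−1.22) without synaptosome 2 and 3. For asRNA:CR43259 they did so with median-of-ratios factors (0.04), library totals (0.02) and DESeq2 (0.04), and without both libraries named old (0.25). With 1 library left out, asRNA:CR44107 ran from −0.81 (without synaptosome 3) to 0.56, asRNA:CR45822 from −0.62 to 0.67 and asRNA:CR45135 from −2.86 to 1.12 (the lowest of both without synaptosome 1). In the same way asRNA:CR43259 ran from −0.87 to 0.42 and lncRNA:CR43685 from −1.64 to 0.18. None of the values with the other sign passed the test, and the cause was not tested. Scaling moved the median log2 fold change of the 36 tested members (0.15 by TMM, 0.27 by median-of-ratios factors, 0.12 by library totals) together with that of all tested genes (−0.35, −0.26 and −0.41), but with 1 library left out the members' median ran from −0.66 to 0.18, and it was −1.15 and −1.03 with the blocks of libraries 1 to 3 and of old (all genes −1.26 and −1.08) and −1.49 without synaptosome 2 and 3. Where libraries were left out, the filter mostly let through other sets of members, so those medians are not over the same 36. The planned look at sequence near the 3′ ends was not run.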
